A study of Mus musculus with 20 samples.

Results

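The drug-metabolizing cytochromes P450 of families 1 to 3 were compared between the livers of mice on 4 diets. The members are the genes whose symbol begins with Cyp1a, Cyp1b, Cyp2 and a letter, or Cyp3a, followed by a number. A gene was read from probe sets that name it alone, and from the brightest of these where there were several. This gave 43 members in 14 subfamilies among the 18193 genes read in this way from 45037 probe sets. The largest subfamilies were Cyp2c with 11 members, Cyp2d with 8, Cyp2j and Cyp3a with 5 each, and Cyp2b with 4. A further 4 genes of these families, Cyp2a4, Cyp2a5, Cyp3a41a and Cyp3a41b, were named only by 2 probe sets shared within each pair and are described apart.

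Whole livers of 20 male mice were measured, 1 Affymetrix mouse expression array per mouse and 5 mice in each group. The strain is given as C57BL/6J in the protocols and as C56BL/6J in the sample labels. The mice were 7 weeks old when the diets began, and the livers were taken 12 weeks later after a 2 h fast. Normal chow (NC) was CRF-1. The high-fat diet (CL) drew 60% of its calories from fat and contained sodium cholate at 0.5% and cholesterol at 1.25%. The other groups received the CL diet with 0.02% astaxanthin (CL + AX), a carotenoid, or with 0.02% vitamin E (CL + VE), and no group received a supplement on chow. Fat, cholesterol and cholate were changed together, only males were used, and the CL diet is a model of steatohepatitis made with an added bile salt, which limits what each group stands for.

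Cytochromes P450 are haem enzymes of the endoplasmic reticulum that insert an oxygen atom into their substrates with electrons from P450 reductase and cytochrome b5. Those of families 1 to 3 oxidize drugs, toxins, steroids, bile acids and fatty acids, and the liver holds most of them. Ligand-activated receptors are known to switch on their genes: the aryl hydrocarbon receptor AHR acts on Cyp1 genes, the constitutive androstane receptor CAR (Nr1i3) on Cyp2b genes and the pregnane X receptor PXR (Nr1i2) on Cyp3a genes. Hepatocyte nuclear factor HNF4 (Hnf4a) maintains many of them in hepatocytes, and several differ between male and female mice under the control of growth hormone.

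The promoters of the genes to which the results return are shown first. Each sequence is the 250 bases before an annotated transcript start in RefSeq on build GRCm38.p6, written 5′ to 3′ on the strand of the gene. Cyp2c70 and Cyp2c68 lie in one cluster on chromosome 19, hold the same HNF4 site and moved in opposite directions. In both, capitals mark CAAAGTCCA, which begins at position -64 from the start in Cyp2c70 and at -77 in Cyp2c68.
Cyp2c70, chr19:40187287-40187536, minus strand: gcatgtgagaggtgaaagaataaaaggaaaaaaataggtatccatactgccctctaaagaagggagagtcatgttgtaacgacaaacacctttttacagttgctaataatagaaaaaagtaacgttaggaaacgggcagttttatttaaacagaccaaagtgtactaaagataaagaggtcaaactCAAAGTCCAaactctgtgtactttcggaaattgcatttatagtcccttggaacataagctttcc
Cyp2c68, chr19:39741102-39741351, minus strand: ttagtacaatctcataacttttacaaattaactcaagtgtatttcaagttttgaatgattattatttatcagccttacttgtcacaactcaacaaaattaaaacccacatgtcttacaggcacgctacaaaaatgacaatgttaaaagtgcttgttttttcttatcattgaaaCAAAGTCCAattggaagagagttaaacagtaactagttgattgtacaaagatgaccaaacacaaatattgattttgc
In the Cyp1 family, capitals mark the AHR core GCGTG on either strand. Its first base is at position -54 in Cyp1a1, and at -76 in Cyp1b1 it lies on the opposite strand and reads CACGC. The Cyp1a2 window holds no match. These promoters are shown because a single CL + VE mouse had the highest signal of its group for each of these genes, which was picked after the values were seen.
Cyp1a1, chr9:57697363-57697612, plus strand: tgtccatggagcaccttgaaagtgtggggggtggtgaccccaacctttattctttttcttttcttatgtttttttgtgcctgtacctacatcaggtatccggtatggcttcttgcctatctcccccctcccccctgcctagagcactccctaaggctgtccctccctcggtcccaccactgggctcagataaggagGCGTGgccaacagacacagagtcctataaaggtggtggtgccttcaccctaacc
Cyp1b1, chr17:79715062-79715311, minus strand: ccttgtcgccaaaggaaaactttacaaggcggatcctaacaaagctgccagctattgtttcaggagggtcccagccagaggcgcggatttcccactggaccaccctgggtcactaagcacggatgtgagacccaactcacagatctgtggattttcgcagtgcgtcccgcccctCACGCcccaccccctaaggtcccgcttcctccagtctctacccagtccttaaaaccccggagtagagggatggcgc
Cyp1a2, chr9:57683656-57683905, minus strand: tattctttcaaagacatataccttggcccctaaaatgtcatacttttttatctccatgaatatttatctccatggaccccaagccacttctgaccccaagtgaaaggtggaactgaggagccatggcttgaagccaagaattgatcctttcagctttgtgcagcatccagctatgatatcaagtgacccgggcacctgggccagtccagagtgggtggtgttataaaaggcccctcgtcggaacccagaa
The promoters of Cyp2b9 and Cyp2b13, close together on chromosome 7, are shown because both signals varied widely between mice. They are the same at 248 of 250 bases (99.2%), and capitals mark the 2 differences, T48C and C104T, given as the Cyp2b9 base, its position counted from 1 at the 5′ end, and the Cyp2b13 base.
Cyp2b9, chr7:26173159-26173408, plus strand: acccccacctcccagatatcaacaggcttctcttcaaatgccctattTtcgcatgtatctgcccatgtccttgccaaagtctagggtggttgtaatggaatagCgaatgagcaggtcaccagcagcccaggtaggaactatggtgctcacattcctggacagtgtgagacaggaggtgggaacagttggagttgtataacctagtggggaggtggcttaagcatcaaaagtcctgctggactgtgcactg
Cyp2b13, chr7:26061245-26061494, plus strand: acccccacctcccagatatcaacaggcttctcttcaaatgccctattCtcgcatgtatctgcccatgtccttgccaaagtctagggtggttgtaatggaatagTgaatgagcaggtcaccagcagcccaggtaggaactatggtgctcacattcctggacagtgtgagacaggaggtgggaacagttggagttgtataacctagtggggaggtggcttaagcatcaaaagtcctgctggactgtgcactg

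RefSeq gave 38 such windows for 35 of the 43 members and 32851 for all genes. CAAAGTCCA, searched on both strands, was in 5 of the 38 (13.2%), those of Cyp2c65, Cyp2c68, Cyp2c70, Cyp3a11 and Cyp3a16, and in 0.384% of all windows. GCGTG was in 7 of the 38 (18.4%) and in 28.2% of all. The letters AGGTCA, which many nuclear receptors recognize, was in 31.6% of the members' windows and in 14% of all, while its relative AGTTCA, usually given for PXR and CAR, was in 7.89% and 11.8%. The letters TATAAA were in 44.7% and 12.4%. A match of letters does not show a bound site, and members of a subfamily share sequence by descent.

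All values below are log2 MAS5 signals after quantile normalization, a scale on which 1 unit is a 2-fold change and levels of different probe sets are not compared. The deposited signals differed in level between arrays. Median signals before normalization were 13.0 to 18.8 in NC, 19.4 to 24.8 in CL, 26.4 to 27.7 in CL + AX and 17.0 to 20.7 in CL + VE. Pairs of arrays correlated at r = 0.896 to 0.940 across probe sets. The control probe sets for the 3′ and 5′ ends of Gapdh, a measure of RNA and labelling quality, differed by 0.38 to 0.78 (log2, 3′ minus 5′) in NC and by -0.26 to -0.09 in CL. The same difference for the control Dap was 2.76 to 3.11 in NC and 0.76 to 1.15 in CL, so these quality measures and the chow diet cannot be told apart. For Actb it was 1.32 to 1.51 in CL + VE, apart from 1.01 to 1.25 in CL and 1.07 to 1.23 in CL + AX, so this measure and vitamin E cannot be told apart either. The summed signal of 12 hepatocyte markers was 16.94 to 16.99 in NC and 16.95 to 17.04 in CL. The summed signal of 15 macrophage and Kupffer cell markers was 11.14 to 12.69 in NC and 13.44 to 14.73 in CL, and 14 of the 15 were higher in CL. Higher signals were also called for 9 of 12 stellate cell, 7 of 12 endothelial, 5 of 11 lymphocyte and 2 of 8 bile duct markers. Of all genes, 12% were called higher. In whole liver, fewer cells of a type and less RNA per cell cannot be told apart.

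Between CL and NC, 10 of the 43 members changed at a limma adjusted p under 0.05, or 23.3%, and the share of all genes called was 23.3%. Of these, 6 were higher in CL (the share of all genes called higher was 12%) and 4 were lower (11.3% of all genes). Cyp2c70, Cyp1b1, Cyp2b13, Cyp2a12, Cyp2c23 and Cyp2j5 were higher, and Cyp2c65, Cyp2c68, Cyp2d10 and Cyp2d13 were lower. The median log2 change of the members was 0.01, against -0.04 for all genes. In 8 members the CL and NC mice did not overlap (15.9% of all genes did not). These were 3 higher members (8.07% of all genes) and 5 lower ones (7.85%). Of all probe sets, 17.6% were called. Among the 34 members at or above the median signal, 8 were called, against 34.5% of all genes as bright.

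**Figure D1:**
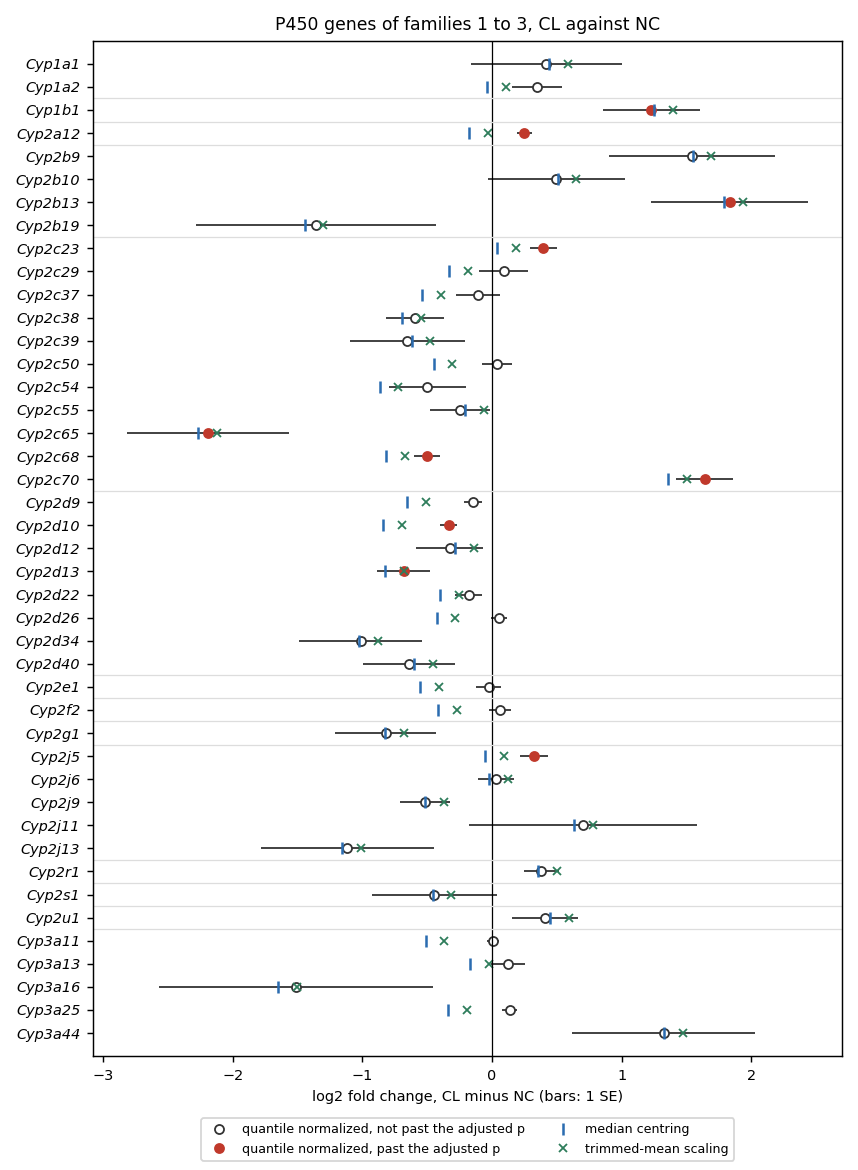
Log2 fold change between CL and NC (x axis, CL minus NC) for each of the 43 members (y axis, by subfamily). Circles are quantile-normalized values with bars of 1 SE, filled where the adjusted p was under 0.05 (10 members), and ticks and crosses give the same difference after median centring and trimmed-mean scaling. Cyp2c70 stayed on the right under all 3 settings, while the ticks of Cyp3a11, Cyp2e1 and Cyp2f2 lay to the left of their circles.

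The choice of scaling decided the direction for many, though not all, of the brightest members. Quantile normalization gives every array the same distribution, so the highest signals are held close together. Where instead each array was multiplied by 1 factor, the members' median lay 0.30 below that of all genes, and with quantile normalization it lay 0.04 above it. Of the 18 members at or above the 97th percentile of signal, 4 were higher and 2 lower with quantile normalization, 1 higher and 9 lower after median centring, and 1 higher and 5 lower after trimmed-mean scaling. Called or not, 12, 2 and 4 of the 18 had a positive change under these settings. Of all probe sets, 17.6%, 18.3% and 19.3% were called. The 1352 brightest probe sets of the array had a median change of 0.0047, -0.38 and -0.24 under these settings, and 11 of the 12 hepatocyte markers were lower after median centring. The changes of Cyp2c70, Cyp1b1 and Cyp2b13 were called as higher, and that of Cyp2d10 as lower, with quantile normalization, median centring, trimmed-mean scaling and with no scaling.

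Cyp2c70 carried the change with the smallest p. This enzyme makes the muricholic acids, bile acids that mice have and humans lack. Its log2 signals were 11.21, 10.67, 11.29, 10.30 and 9.86 in NC and 12.96, 12.07, 12.48, 11.96 and 12.06 in CL. The highest NC mouse was below the lowest of all 15 mice given the CL diet, with or without a supplement. The difference was 1.64 ± 0.22 (SE), a 3.12-fold higher signal (adjusted p = 2.1e-05). It remained called in all 31 alternatives run, at 1.36 after median centring and 1.86 without scaling. In the supplemented groups the signals were 12.11 to 12.53 with astaxanthin and 11.95 to 12.68 with vitamin E, close to the range of CL.

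Cyp1b1, an AHR-responsive enzyme that oxidizes oestrogens and is mostly found outside hepatocytes, was 2.35-fold higher in CL. Its signals were 4.16, 4.24, 4.06, 4.62 and 4.06 in NC and 5.56, 6.30, 5.17, 5.07 and 5.20 in CL. The groups did not overlap, and the difference was 1.23 ± 0.37 (adjusted p = 0.024). Without CL replicate 2, the highest mouse, the adjusted p was 0.079. A second probe set of the gene moved the same way by 1.03, and the remaining, dimmer one had a difference of -1.34. With the probe sets averaged the difference was 0.31 and was not called. The stellate cell and macrophage markers given above moved with it, and their part in this change was not tested.

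The Cyp2b genes are the classical targets of CAR, and Cyp2b9 and Cyp2b13 are known as female forms in mouse liver. Cyp2b13 had signals of 1.26, 3.44, 1.89, 1.20 and 2.89 in NC and 4.35, 4.03, 4.14, 3.22 and 4.11 in CL, a difference of 1.83 ± 0.61 (adjusted p = 0.039). It is a dim member, the groups overlapped at 1 CL mouse, and the call was lost without any 1 of 7 mice (adjusted p = 0.069 to 0.098). With 16 added to each signal the difference was 0.60 and was not called. Cyp2b9, whose promoter nearly matches that of Cyp2b13, differed by 1.54 ± 0.64 without passing the test (adjusted p = 0.11), from 3.94 to 6.26 in NC and from 5.51 to 6.79 in CL. It was called with no scaling (2.05), in a fit of the CL and NC mice alone, and without NC replicate 5 (1.93) or CL + AX replicate 2. Cyp2b10, the most CAR-responsive of the 3, differed by 0.50 ± 0.53. Probes for Cyp2b9 and Cyp2b13 may bind the transcripts of both, and this was not tested.

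Cyp2a12, which restores hydroxyl groups to bile acids altered by gut bacteria, had the tightest signals of the genes that were higher. They were 12.23 to 12.33 in NC and 12.40 to 12.62 in CL, a difference of 0.25 ± 0.06 (adjusted p = 0.0041), and all 15 mice on the CL diet lay above all NC mice. Its direction turned to -0.17 after median centring and -0.03 after trimmed-mean scaling. Cyp2c23 and Cyp2j5 are epoxygenases of arachidonic acid. Cyp2c23 was higher by 0.40 ± 0.10 (adjusted p = 0.0095), and Cyp2j5 by 0.32 ± 0.11 (adjusted p = 0.042). After median centring the differences were 0.04 and -0.05, neither called, and the call of Cyp2j5 was also lost without any 1 of 7 mice. A second probe set of Cyp2j5 differed by 0.14 ± 0.19 and was not called. With the gene's probe sets averaged the difference was 0.23, also not called.

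Of the members that were lower, Cyp2d10 was the most stable. Its signals were 13.19, 13.08, 13.07, 13.06 and 13.14 in NC and 12.86, 12.62, 12.73, 12.79 and 12.88 in CL. No CL-diet mouse reached the lowest NC mouse, supplements included. The difference was -0.33 ± 0.07, a signal 0.794 times that of NC (adjusted p = 9.2e-04), and it remained called in all 31 alternatives. Cyp2d13, of the same subfamily, had signals of 9.18 to 9.34 in NC and 7.93 to 9.05 in CL, with a difference of -0.68 ± 0.21 (adjusted p = 0.024). A second probe set of Cyp2d13 differed by -0.46, and the call was lost without CL replicate 2 or CL replicate 4, and among other settings without scaling, where the difference was -0.32. In the whole subfamily 7 of 8 members had a lower mean in CL, or 5 of 8 with no scaling, and 2 were called lower, as were 11.3% of all genes.

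Cyp2c68 was lower in CL, with a difference of -0.50 ± 0.10 (adjusted p = 0.0011). Its signals were 11.27 to 11.77 in NC and 10.81 to 11.02 in CL, so the groups were apart, in the opposite direction to Cyp2c70. Without scaling it differed by -0.31 and was not called. Cyp2c65, known from the intestine, differed by -2.19 ± 0.63 (adjusted p = 0.017), from 1.98 to 3.35 in NC and from -0.95 to 0.87 in CL. Its mean signal was at percentile 11.8 of all probe sets, and without CL replicate 2 the adjusted p was 0.053. With 16 added to each signal the difference was -0.32 and was still called. Detection calls were not analysed here, so it is not known whether the probe set was above background. Within the Cyp2c subfamily, 2 members rose, 2 fell and 7 did not pass the test, where 12% of all genes were called higher and 11.3% lower.

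**Figure D2:**
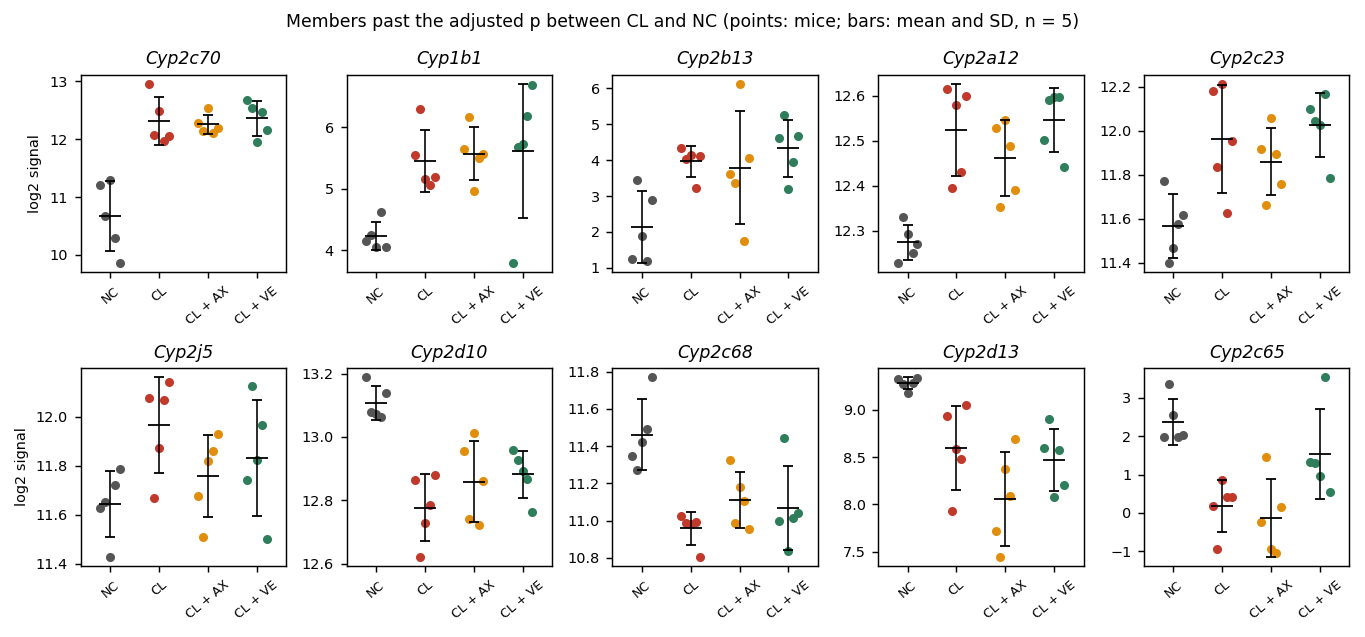
Log2 signals (y axis) of the 10 members called between CL and NC, by group (x axis), with 1 point per mouse and bars for the mean and SD (n = 5). In the Cyp2c70 and Cyp2a12 panels all 15 mice on the CL diet lay above the 5 NC mice, and in the Cyp2d10 and Cyp2d13 panels all 15 lay below them.

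The abundant, constitutive enzymes had small differences after quantile normalization. Cyp2e1, which oxidizes ethanol and paracetamol, had signals of 13.40 to 13.76 in NC and 13.40 to 13.81 in CL, a difference of -0.02 ± 0.09. Cyp3a11, the main Cyp3a enzyme of mouse liver, differed by 0.01 ± 0.05, with a 95% interval of -0.09 to 0.10. After median centring Cyp2e1 differed by -0.56 (adjusted p = 0.013) and Cyp3a11 by -0.51 (adjusted p = 4.5e-04). Both lay at percentile 99.9 of signal, where quantile normalization leaves little room to differ, so neither an equal nor a lower level in CL is settled by these arrays. Cyp2c50 differed by 0.04 ± 0.12, Cyp2d9, a male-specific testosterone hydroxylase, by -0.15 ± 0.07, and Cyp2f2, the naphthalene-activating enzyme, by 0.06 ± 0.08, none of them called. After median centring they differed by -0.45, -0.66 and -0.41, all called.

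Of the subfamilies with 1 member, Cyp2r1, a vitamin D hydroxylase, differed by 0.38 ± 0.13 (adjusted p = 0.055), with 6.70 to 7.37 in NC and 7.23 to 7.80 in CL. It was called after trimmed-mean scaling at 0.50 and with no scaling at 0.86, among the brighter probe sets alone, and without NC replicate 2, NC replicate 5, CL replicate 2 or CL + VE replicate 4 (adjusted p = 0.030 to 0.048). Cyp2g1, known from the olfactory mucosa, differed by -0.82 ± 0.39 and Cyp2s1, an enzyme mostly outside the liver, by -0.44 ± 0.48. Cyp2u1, a fatty acid hydroxylase, differed by 0.41 ± 0.25. Its second probe set differed in the opposite direction, by -0.71 ± 0.21, and was called lower (adjusted p = 0.018). With no scaling Cyp2u1 was called, at 0.95. Cyp1a2, which oxidizes caffeine, differed by 0.35 ± 0.19 (adjusted p = 0.24). The shared probe set of Cyp2a4 and Cyp2a5 differed by -0.42 ± 0.26 and that of Cyp3a41a and Cyp3a41b by 0.37 ± 0.26. Apart from that second probe set of Cyp2u1, none of these passed the test with quantile normalization of all arrays.

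The 9 members below the median signal were measured with less precision. Their median SE was 0.67, against 0.18 for the 34 brighter members. The 95% interval of the change lay within a 1.5-fold change in either direction for 15 of the 34 and for none of the 9. For Cyp2j11, Cyp2j13, Cyp2b19, Cyp2d34, Cyp3a16 and Cyp3a44, differences from -1.51 to 1.32 did not pass the test.

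The other P450 genes, of families 4 and above, include the enzymes of cholesterol, bile acid and steroid synthesis. Of 30 such genes, 18 were called, 6 higher and 12 lower, and their median change was -0.53, where 23.3% of all genes were called. With no scaling 6 were higher and 7 lower, and after median centring 6 and 13. Cyp51, of cholesterol synthesis, had a difference of -2.31, Cyp8b1, of cholic acid synthesis, of -2.71, and Cyp7a1, the first enzyme of bile acid synthesis, of -2.69. No test of the difference between the 2 sets of genes was made.

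The receptors that switch on the drug-metabolizing P450 genes were measured in the same livers. Of 19 genes on a list of nuclear receptors and partners, 8 were lower in CL, 4 higher and 7 not called, where 23.3% of all genes were called. The list also holds other transcription factors, such as Cebpa, Foxa2, Onecut1, Cux2, Bcl6 and Stat5b, so these are not counts of receptors alone. Nr1i3, which encodes CAR, had signals of 9.80 to 10.06 in NC and 9.33 to 9.63 in CL, a difference of -0.49 ± 0.10 (adjusted p = 9.7e-04). Nr1i2, which encodes PXR, had 9.01 to 9.62 in NC and 8.53 to 9.01 in CL, a difference of -0.53 ± 0.12 (adjusted p = 0.0029). Their shared partner Rxra was lower in all CL mice, at 9.95 to 10.20 against 10.50 to 10.61, with a difference of -0.44 ± 0.07 (adjusted p = 7.6e-05). With no scaling the 3 differences were -0.164 for Nr1i3, -0.156 for Nr1i2 and -0.162 for Rxra and none was called, while median centring and trimmed-mean scaling kept the calls.

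Nr1h4, the bile acid receptor FXR, differed by -0.49 ± 0.13 (adjusted p = 0.011), Hnf4a by -0.29 ± 0.09 (adjusted p = 0.033) and Arnt, the partner of AHR, by -0.48 ± 0.16 (adjusted p = 0.036). Nr0b2, the FXR target SHP that represses bile acid synthesis, differed by 0.87 ± 0.30, just outside the threshold (adjusted p = 0.0502). Ahr itself differed by -0.49 ± 0.19 (adjusted p = 0.084). Ahrr, the AHR repressor, was higher by 3.003 ± 0.62 (adjusted p = 0.0015), but its NC signals were among the dimmest, from -1.55 to 0.44, and with 16 added to each signal the difference was 0.34. Nr3c1, the glucocorticoid receptor, was higher by 0.43 ± 0.08 (adjusted p = 5.4e-04), and after median centring it differed by 0.30 and was not called. Of the 19 genes, 8 were called lower with quantile normalization, 0 with no scaling, 10 after median centring and 7 after trimmed-mean scaling. Those called higher numbered 4, 6, 3 and 4 in the same order.

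Outside the P450s, the AHR-responsive list had 3 of 5 measured genes higher, where 12% of all genes were called higher. These were Nfe2l2 by 0.90, Tiparp by 0.33 and Ahrr, whose dim NC signals are given above and which is also on the list of nuclear receptors and partners. After median centring Tiparp differed by 0.31 and was not called, and 2 of the 5 were called higher. Nqo1, the best-known oxidoreductase of the AHR-responsive list, differed by -0.18 ± 0.14 and was not called. Of 14 PXR and CAR targets outside the P450s, 3 were higher and 4 lower (12% and 11.3% of all genes). With no scaling 3 were higher and 1 lower, and after median centring 2 and 6. Gstm1, a glutathione transferase, was higher by 0.60 and Abcb1a, a drug efflux pump, by 1.11, while Papss2, which makes the sulfate donor, was lower (-0.69). After median centring Gstm1 differed by 0.18 and was not called, and after trimmed-mean scaling by 0.32. Of 6 flavin monooxygenases and epoxide hydrolases, Fmo5 alone was called as higher by 0.41, and this call was lost after median centring and trimmed-mean scaling, which called 3 genes lower.

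P450 enzymes need haem and electrons. Por, the reductase, was named alone by no probe set. Cyb5a, the cytochrome b5 of the endoplasmic reticulum, differed by 0.13 ± 0.06 and was not called, and Cyb5b, of the mitochondrial outer membrane, was the only one of 5 measured partners called (-0.45 ± 0.10, lower). With no scaling none of the 5 was called and Cyb5b differed by -0.18, while median centring and trimmed-mean scaling each called 4 of the 5 lower. Among 11 haem genes, Hmox1, which breaks haem down, was higher in every CL mouse, at 7.69 to 8.58 against 5.81 to 7.13 in NC, a difference of 1.64 ± 0.23 (adjusted p = 3.1e-05). Blvra, the next enzyme of haem breakdown, was higher by 0.36, and the synthesis enzymes Alad and Urod were both lower (-0.41 each). With no scaling Alad differed by -0.14 and Urod by -0.12, neither called. Alas1, the rate-limiting enzyme of haem synthesis, differed by -0.82 ± 0.31 (adjusted p = 0.073), and was called lower after median centring (-1.24) and trimmed-mean scaling (-1.10). Hmox1 is also a gene of macrophages, whose markers moved with it, and their part was not tested.

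**Figure D3:**
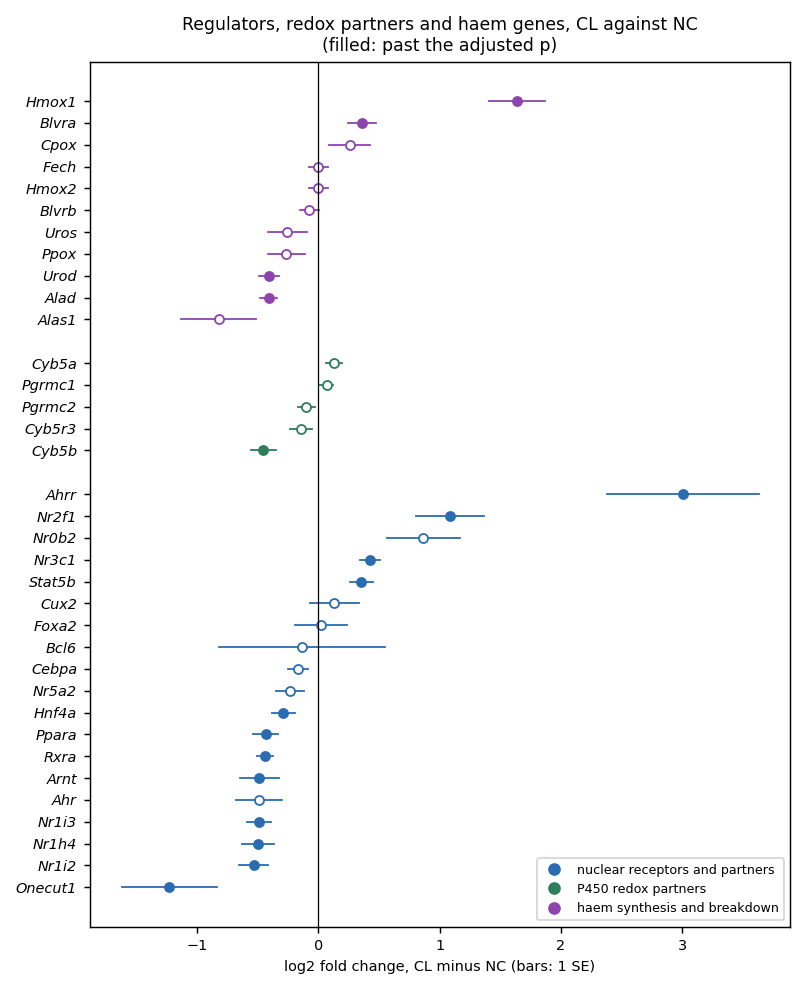
Log2 fold change between CL and NC (x axis, bars of 1 SE) for the measured genes of 3 lists: nuclear receptors and partners, P450 redox partners, and haem synthesis and breakdown. Filled points had an adjusted p under 0.05, with Rxra, Nr1i3 and Nr1i2 on the left and Hmox1 and Ahrr on the right.

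Zonation and sex bias were read from lists of known genes. P450 enzymes are mostly found around the central vein, and of 9 pericentral members none was called with quantile normalization. Of 9 genes of that zone outside the P450s, 2 were lower (11.3% of all genes), Rhbg by -1.37 and Slc1a2 by -0.53. Median centring called 4 of the pericentral members lower. With no scaling 4 of the 9 other genes were higher and 1 lower, and Slc1a2 differed by -0.20 and was not called. Of 8 periportal genes, 2 were higher (12% of all genes), Cdh1 by 1.01 and Hsd17b13 by 0.34, and none was lower. After median centring 1 periportal gene was higher and 4 were lower, and with no scaling 3 were higher and none lower. Of 7 female-biased members only Cyp2b13 was called and of 5 male-biased members only Cyp2j5, where 23.3% of all genes were called. Of 11 male-biased genes outside the members, 5 were lower (11.3% of all genes), with Ugt2b38 at -2.36, Cyp4a12a at -0.72 and Cyp7b1 at -0.94. Of 13 female-biased genes 2 were higher and 4 lower (12% and 11.3% of all genes), or 5 and 2 with no scaling. The lower ones included Acot3 at -2.06, Cyp17a1 at -2.04 and Acot4 at -0.91. With no scaling Acot4 differed by -0.45 and was not called.

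Neither supplement changed a member at the adjusted p. Between CL + AX and CL, 0 of 43 members were called in limma (0% of all genes), and at an unadjusted p under 0.05 there were 2 higher and 5 lower members (4.03% and 4.02% of all genes). Between CL + VE and CL, 0 were called (0% of all genes), and at an unadjusted p under 0.05 there were 3 higher and 0 lower members (4.85% and 2.7% of all genes). These comparisons share the CL mice. The 95% intervals lay within a 1.5-fold change for 18 members with astaxanthin and 22 with vitamin E, all among the 34 brighter members. For Cyp2c70 the interval was -0.52 to 0.41 with astaxanthin and -0.41 to 0.51 with vitamin E, and both exclude -1.64, the change that would bring it back to the mean of NC.

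Cyp2j6, a fatty acid epoxygenase, was the member with the smallest unadjusted p for astaxanthin. Its signals were 8.39, 7.80, 8.09, 7.96 and 7.83 in CL and 7.404, 7.23, 7.57, 7.69 and 7.48 in CL + AX. It was the only member whose groups did not overlap in this contrast (1.96% of all genes did not, 1.01% with lower signals), with a difference of -0.54 ± 0.14 (adjusted p = 0.32). Its second probe set differed by -0.25, less than the first, and there the groups overlapped. Cyp3a13 differed by 0.35 ± 0.13, Cyp2d13 by -0.54 ± 0.21, Cyp2b10 by -1.32 ± 0.53 and Cyp2g1 by -0.95 ± 0.39, with adjusted p from 0.55 to 0.61. With vitamin E the smallest p values belonged to Cyp2d22 at 0.24 ± 0.10, Cyp1a2 at 0.43 ± 0.19, Cyp2c65 at 1.35 ± 0.63, Cyp2r1 at -0.27 ± 0.13 and Cyp2d10 at 0.11 ± 0.07. Their adjusted p were 0.58 to 0.76.

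CL + VE replicate 4 stood apart for Cyp2c65 and Cyp2r1. Its Cyp2c65 signal was 3.54 and those of the other 4 mice 0.55 to 1.32, and without it the difference from CL was 0.85. Its Cyp2r1 signal was 7.62 and those of the others 7.06 to 7.18, and without it the difference was larger, at -0.38.

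**Figure D4:**
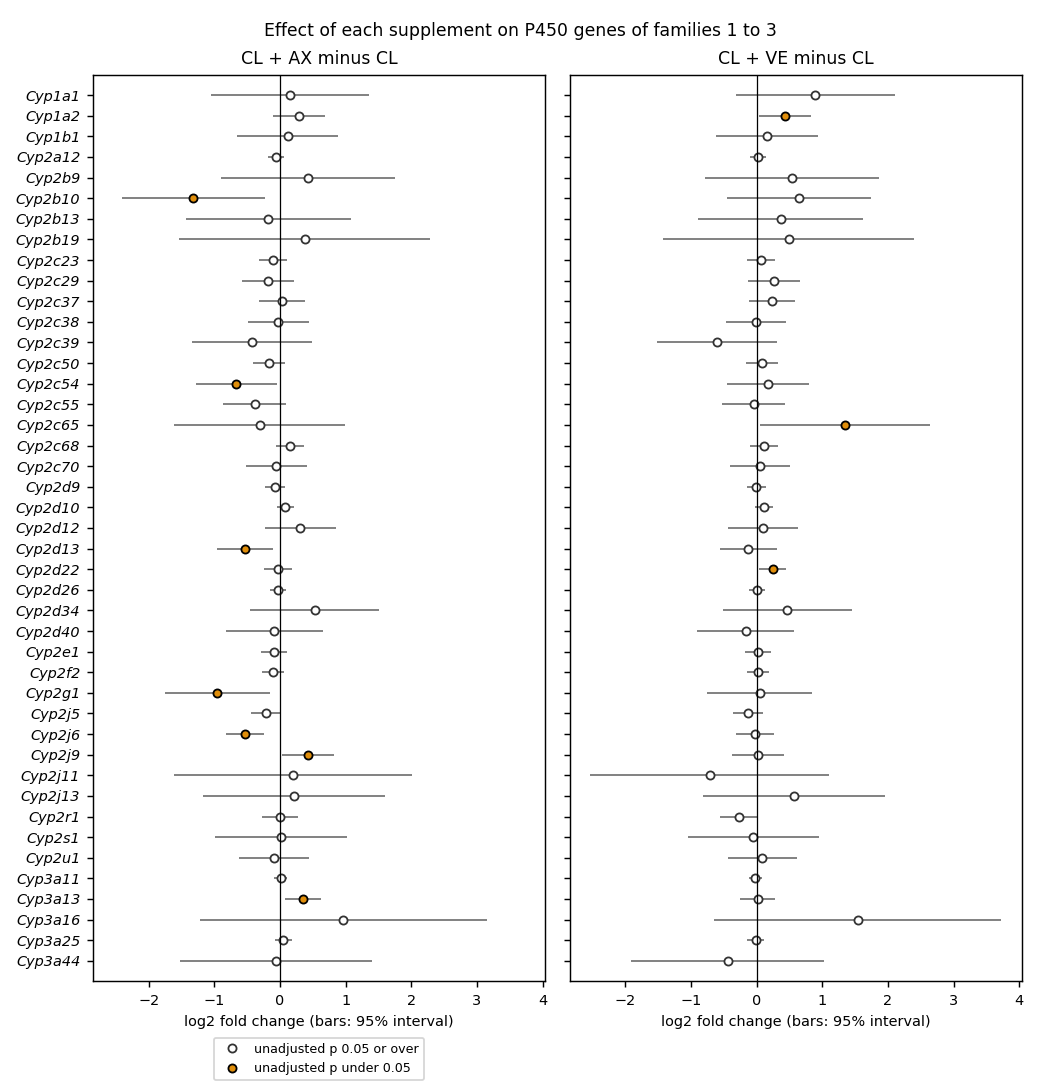
Log2 fold change of each member (y axis) between CL + AX and CL (left) and between CL + VE and CL (right), with 95% intervals. Filled points had an unadjusted p under 0.05, 7 with astaxanthin and 3 with vitamin E, and no member passed the adjusted p in either panel.

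Between CL + AX and CL + VE, 0 of 43 members were called in limma (0% of all genes), and at an unadjusted p under 0.05 there were 2 higher and 8 lower members with astaxanthin (3.66% and 6.59% of all genes). The groups overlapped for every member here and between CL + VE and CL (2.53% and 1.59% of all genes did not overlap). An unmoderated test on the same signals called 0 members in these 3 contrasts. Cyp2b10 was the lowest of these relative to vitamin E, at 5.03, 3.29, 5.19, 3.46 and 5.84 with astaxanthin and 6.49, 8.41, 6.26, 5.92 and 5.55 with vitamin E. The difference was -1.96 ± 0.53 (adjusted p = 0.21), and all 3 probe sets of the gene had this sign. Cyp2c54 had signals of 9.74 to 11.41 with astaxanthin and 10.80 to 12.21 with vitamin E, a difference of -0.84 ± 0.30 (adjusted p = 0.37). Cyp2j6 differed by -0.51 ± 0.14, Cyp2d22 by -0.28 ± 0.10 and Cyp2c65 by -1.66 ± 0.63. After median centring 11 members were called as lower with astaxanthin, among them Cyp2b10, Cyp2j6 and Cyp3a11, when 3.67% of all probe sets were called. Of these 11, 8 were among the 18 members at or above the 97th percentile of signal. Trimmed-mean scaling called 0 members, and no scaling called 1, as higher. Cyp3a11 differed by 0.03 with quantile normalization. The shared probe set of Cyp2a4 and Cyp2a5 differed by -0.73 (adjusted p = 0.36).

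Individual mice stood apart within the diet groups, and the Cyp1a genes were chosen here after their values were seen. The Cyp1a1 signal was 7.70 in CL + VE replicate 5 and 4.23 to 4.55 in the other 4 mice of that group. In the same mouse Cyp1a2 was 13.39, against 12.01 to 12.48 in the others, and Cyp1b1 was 6.70, the highest of all 20 mice. Tiparp and Nqo1, from the AHR-responsive list, were the highest of their group there, at 7.33 and 6.71. They too were picked after the values were seen, and the list's other genes are not given for this mouse. Whether AHR was more active in it was not tested. Without this mouse the difference of Cyp1a2 between CL + VE and CL was 0.20 in place of 0.43. The 3′ to 5′ difference of the control Dap was 1.81 on this array and 0.90 in the group's median array, and its part was not tested.

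Cyp2b9 and Cyp2b13 were also spread widely among the supplemented mice. In CL + AX, Cyp2b9 ranged from 4.10 to 8.53 and Cyp2b13 from 1.75 to 6.13, and replicate 3 was the highest for both. In CL + VE, replicate 2 was the highest for Cyp2b9 (7.97), Cyp2b13 (5.26) and Cyp2b10 (8.41). The Cyp2b10 signal of CL + AX replicate 3, 5.19, was within its group's range. In CL the 5 mice lay between 5.51 and 6.79 for Cyp2b9, so the spread was wider in both supplemented groups. The NC mice were also more widely spread than those of CL, from 3.94 to 6.26 for Cyp2b9. For Cyp2b13 they ran from 1.20 to 3.44, and those of CL from 3.22 to 4.35. The differences in spread were not tested.

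**Figure D5:**
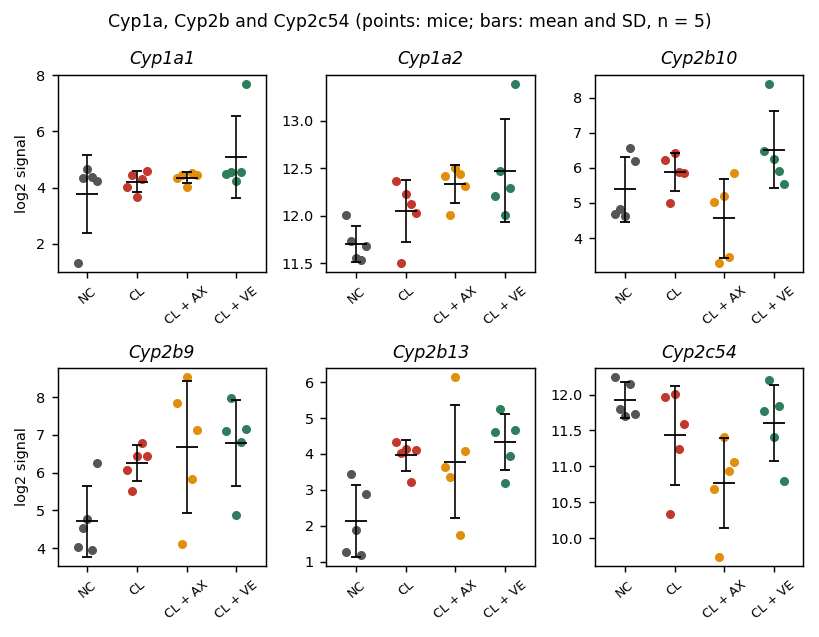
Log2 signals (y axis) of Cyp1a1, Cyp1a2, Cyp2b10, Cyp2b9, Cyp2b13 and Cyp2c54 by group (x axis), with 1 point per mouse and bars for the mean and SD (n = 5). One CL + VE mouse lies above the rest for Cyp1a1 (7.70) and Cyp1a2 (13.39), and the Cyp2b9 signals of CL + AX run from 4.10 to 8.53.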

How the data were processed

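Total RNA of each liver was labelled with a 3′ in vitro transcription kit and hybridized to Affymetrix mouse expression arrays. The intensity values were made by the authors in MAS5, and 1 linear signal per probe set and array was deposited, unscaled. MAS5 includes a background correction, and 3′ labelling makes signals sensitive to RNA quality. Here, 64 control probe sets were left out and log2 signals were quantile normalized, since the deposited medians differed between arrays. In limma 3.58.1 under R 4.3.3, 1 model of the 4 groups (16 residual degrees of freedom, variance prior following the mean signal) gave 4 contrasts, with Benjamini-Hochberg adjustment over 45037 probe sets and a threshold of 0.05. Each mouse was 1 sample, and the number of arrays limits the precision. On simulated data for CL against NC, 22.5% of probe sets changed by 0.5, 74% of those changed by 1 and 97.5% of those changed by 2 (log2) were recovered among 45037. In each simulation 200 probe sets were changed, all at or above the median signal, and the rest were left unchanged. In the data 7910 were called and some members are dimmer, so these shares do not carry over to the members. Gene names came from the platform annotation. Named with values were all called members, the brightest of each subfamily, the 5 smallest p values in each contrast among CL-diet groups, and of each other list the 3 smallest p values plus fixed regulators. Members and lists were chosen with earlier results of these data known. The alternatives were other scalings, an offset of 16, other variance models, filters, probe set rules, the methods' t-test, a replicate block and leaving out each mouse.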

Additional observations from a re-analysis of the deposited data

Results flagged for a closer look

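In each group of 5 mice, the highest or lowest signal of a member was singled out when its gap to the nearest mouse exceeded 0.71 of the group's range (Dixon's criterion). Of 172 such groups, 13 met it, where chance gives about 5%. In NC these were the lowest Cyp1a1 signal, 1.32 in replicate 1 (the others were 4.22 to 4.67), the lowest Cyp2b19 signal, 0.14 in replicate 4 (3.17 to 4.33), and in replicate 5 the lowest Cyp2d12 signal, 3.93 (4.94 to 5.35), and the lowest Cyp2j13 signal, 1.53 (3.69 to 4.22). In CL they were the lowest Cyp2b13 signal, 3.22 in replicate 4 (4.03 to 4.35), the lowest Cyp2c68 signal, 10.81 in replicate 5 (10.98 to 11.02), the lowest Cyp2d34 signal, 1.25 in replicate 1 (3.58 to 4.43), and in replicate 2 the lowest signals of 2 genes, Cyp2c37 at 11.50 (12.22 to 12.49) and Cyp2c50 at 12.36 (12.89 to 13.05). In CL + VE they were the highest Cyp1a1 signal, 7.70 in replicate 5 (4.23 to 4.55), the highest Cyp2j11 signal, 3.72 in replicate 2 (0.23 to 1.08), and in replicate 4 the highest Cyp2c65 signal, 3.54 (0.55 to 1.32), and the highest Cyp2r1 signal, 7.62 (7.06 to 7.18). No group of CL + AX met the criterion.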

How the results depend on the processing

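Cyp2c70 and Cyp2d10 kept their direction and their call between CL and NC under all 31 alternatives. The scaling mattered most. Without scaling, the members higher in CL numbered 10 and those lower 1, Cyp2s1 differed by 0.0436 and Cyp3a11 by -0.0107, the probe sets called were 0 between CL + AX and CL, 26 between CL + VE and CL and 1886 between CL + AX and CL + VE, and in the last contrast 1 member (Cyp2j9) was called, as higher, and Cyp2d22 differed by 0.0246. After median centring 16 members were called between CL and NC, 3 higher and 13 lower, and Cyp2a12 differed by -0.17, Cyp2j5 by -0.0531, Cyp1a2 by -0.0354, Cyp2c50 by -0.45, Cyp2f2 by -0.41 and Cyp3a11 by -0.51. The same centring called 0 probe sets between CL + AX and CL, and 1652 probe sets and 11 members between CL + AX and CL + VE, the 11 all lower. After trimmed-mean scaling 7 members were lower in CL, and Cyp2a12 differed by -0.0303, Cyp2c50 by -0.31, Cyp2f2 by -0.27 and Cyp3a11 by -0.37. Between CL and NC the share of all probe sets called was 23.8% without scaling, 18.3% after median centring and 19.3% after trimmed-mean scaling. The median change of all genes was -0.04 with quantile normalization, 0.39 without scaling, -0.11 after median centring and 0.03 after trimmed-mean scaling, and the members' median minus it was -0.30 in the last 3. The t-test of the methods called 6 members between CL and NC, 3 of them higher, and 3444 probe sets, with 0 probe sets between CL + AX and CL. Without probe sets of a shared type, 2 members were lower. The mean of a gene's probe sets gave -0.15 for Cyp2u1. An offset of 16 left 0 probe sets between CL + AX and CL + VE, a variance without trend 0 there and 0 between CL + AX and CL, and fits of only the 2 groups 3 between CL + VE and CL and 24 between CL + AX and CL + VE.

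Leaving out each mouse gave 7 to 12 members called between CL and NC, 4 to 8 higher and 2 to 5 lower, the lowest without CL replicate 2. Probe sets called ranged from 6769 to 8104 between CL and NC, 0 to 2 between CL + AX and CL, 0 to 2 between CL + VE and CL and 0 to 13 between CL + AX and CL + VE. Cyp2e1 ranged from -0.0863 to 0.0179, Cyp2c50 from -0.0172 to 0.155 and Cyp3a11 from -0.0126 to 0.0204. Same-numbered mice of CL and NC deviated from their group means with correlations of -0.09 to 0.11, and over the 4 contrasts the range was -0.20 to 0.31, with 1 to 3 of 5 mice correlating best with their own number, so the numbers were not taken to pair the mice. With the number as a replicate block, 10 members were called between CL and NC, Cyp2j5 no longer among them, and the probe sets called were 0 between CL + AX and CL, 3 between CL + VE and CL and 5 between CL + AX and CL + VE. The cause of these differences was not tested.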
